A study of Mus musculus with 6 samples.

Results

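The genes described here are 9 genes of phosphoinositide 3-kinase (PI3K) signaling: the class I catalytic subunits Pik3ca, Pik3cb, Pik3cd and Pik3cg, the regulatory subunits Pik3r1, Pik3r5 and Pik3r6, the lipid phosphatase gene Inpp5d, and Deptor. They were listed by gene symbol, but with earlier results of these data known. Their counts are thus not those of a list blind to the data. All 9 were found among the 18211 genes of the table and were among the 13792 genes tested. RNA was sequenced from oligodendrocyte precursor cells (OPCs), the progenitors of the myelin-forming cells of the brain, isolated from cerebral hemispheres at P7 by immunopanning for PDGFRα. There were 3 libraries from wildtype mice and 3 from DISC1-Δ3 mice, all on C57BL/6 and all given tamoxifen from P4 to P7. DISC1-Δ3 mice carry NG2-CreERTM and 1 floxed copy of DISC1 exon 3 (NG2-CreERTM:DISC1 exon3 fl/+), so Cre is driven by the NG2 (Cspg4) promoter, the deletion affects 1 of the alleles, and the wildtype controls carry no CreERT. The labels do not say whether a library is 1 animal or a pool, so p-values measure the spread between these libraries, which may be technical.

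PI3Ks of class I phosphorylate a membrane lipid to form PIP3, which recruits AKT kinases and, through them, activates mTOR complexes. Growth factor receptors such as the PDGF receptor of OPCs act through catalytic subunits bound to p85-type regulatory subunits, and in OPCs this pathway is known for its part in survival, growth and myelination. The catalytic subunits p110δ and p110γ, the p110γ partners p101 and p84, and the phosphatase SHIP1 are best known from leukocytes and macrophages, microglia included. SHIP1 removes a phosphate from PIP3, and DEPTOR binds and inhibits mTOR, which is why both are described as brakes.

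Libraries held 13716619 to 16417219 reads assigned to genes. Replicates differed by more than counting error: the chi-square of a pair, divided by its degrees of freedom, was 1.80 to 2.97 for wildtype, 2.59 for DISC1-Δ3 replicates 1 and 2, and 4.99 and 5.39 for the pairs with DISC1-Δ3 replicate 3, which thus stood apart from the others. Disc1 had a log2 fold change of -0.45 (SE 0.088, adjusted p = 0.000528, edgeR), a value per gene that does not resolve exon 3, and Cspg4 one of 0.46 (SE 0.062, adjusted p = 1.15e-05, edgeR). Checked against the label, the OPC markers were present in every library, with a summed RPKM (reads per gene length and library total) of 823 to 850 over 12 genes in wildtype and 984 to 1033 in DISC1-Δ3 libraries. However, the 20 microglia markers summed to 20042 to 20483 RPKM in wildtype and to 14284 to 14805 RPKM in DISC1-Δ3 libraries, with no marker at 0. Of the microglia markers 19 of 20 were lower in DISC1-Δ3 libraries, beside 19.5% of all genes tested, with a median log2 fold change of -0.46. C1qa, a complement gene, was the most abundant of these markers by the wildtype mean, with 3312 ± 128 RPKM in wildtype and 2192 ± 61.1 RPKM in DISC1-Δ3 libraries (SD, n = 3).

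The sequences before the start sites are shown first for Inpp5d, Pik3cg and Pik3cd, because these leukocyte-type genes were lower in DISC1-Δ3 libraries. The RefSeq promoter table (GRCm38.p6, the mm10 assembly) held 11 start sites of 7 of the 9 genes; Pik3r6 and Deptor had no entry. Each line gives the 250 bases before the first listed start site, 5′ to 3′ on the strand of the gene, and capitals mark a match to the PU.1-type ETS core GAGGAAG, a short sequence bound by a transcription factor of myeloid cells. The Inpp5d window is chr1:87620062-87620311 (plus strand), the Pik3cg window chr12:32208660-32208909 (minus strand) and the Pik3cd window chr4:149698709-149698958 (minus strand).
Inpp5d: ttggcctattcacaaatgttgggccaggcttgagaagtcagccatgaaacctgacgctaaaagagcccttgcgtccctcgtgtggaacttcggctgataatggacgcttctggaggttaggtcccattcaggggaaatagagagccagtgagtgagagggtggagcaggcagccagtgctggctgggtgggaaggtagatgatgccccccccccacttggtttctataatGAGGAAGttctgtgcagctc
Pik3cg: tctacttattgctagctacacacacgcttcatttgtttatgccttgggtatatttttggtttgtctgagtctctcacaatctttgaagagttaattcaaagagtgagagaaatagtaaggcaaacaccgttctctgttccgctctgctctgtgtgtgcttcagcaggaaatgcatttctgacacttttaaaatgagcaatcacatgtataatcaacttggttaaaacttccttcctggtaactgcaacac
Pik3cd: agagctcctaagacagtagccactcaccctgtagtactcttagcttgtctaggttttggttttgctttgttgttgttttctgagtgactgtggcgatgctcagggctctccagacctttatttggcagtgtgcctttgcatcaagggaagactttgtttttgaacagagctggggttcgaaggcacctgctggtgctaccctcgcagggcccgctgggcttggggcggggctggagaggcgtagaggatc

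On either strand, GAGGAAG was found in 2 of the 11 windows of these genes and in 10.6% of all 32851 windows of the table. In Inpp5d it began at base -20 from the start site. In Pik3cg no whole match lay in the window shown. Matches began at -190 and -152 of a second start site further into the gene, where a FOXO core, GTAAACA, also began at -92. The window of that site, chr12:32208471-32208720, overlaps the one shown, and the match at -190 begins on the last base shown. GTAAACA was found in no other window of these genes and in 3.17% of all windows, and the TCF/LEF core CTTTGAT in none of the 11 and in 3.21% of all. No search allowed mismatches, the motifs do not overlap one another in these windows, and a match is a stretch of letters, not a measured site. The windows also differed in CpG content, against a median of 6 CpG dinucleotides over all windows. The first windows of Pik3cb, Pik3r1 and Pik3ca held 32, 30 and 19 CpG, that of Pik3r5 held 14, and those of Pik3cd, Inpp5d and Pik3cg held 6, 5 and 3. Start sites of 1 gene differed as well, since the second windows of Pik3cd and Pik3r1 held 19 and 6.

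DISC1-Δ3 libraries contained less RNA of the leukocyte-type PI3K genes, and also of Pik3r1 and Deptor. The widely expressed catalytic subunits Pik3ca and Pik3cb did not pass the test in either direction. The calls of Pik3r5 and Pik3r1 did not hold in every alternative, as given below. Of the 9 genes 7 were lower (Pik3cg, Inpp5d, Deptor, Pik3r6, Pik3cd, Pik3r1 and Pik3r5) and none was higher at an adjusted p under 0.05 in edgeR's quasi-likelihood test, with log2 fold changes of -0.87 to -0.24 for the lower genes. Over all 13792 genes tested, 39.9% were called, 19.5% lower and 20.4% higher, with a median log2 fold change of 0.01 against -0.52 for the 9 genes. A fall of at least 0.5 on the log2 scale with an adjusted p under 0.05 was seen for 6.15% of all genes, and for 5 of these 9, Pik3cg, Inpp5d, Deptor, Pik3r6 and Pik3cd. In scaled counts the groups did not overlap for 8 of the 9 genes (49.6% of all genes tested), with DISC1-Δ3 libraries below for the 7 lower genes (23.2% of all) and above for Pik3ca (26.5% of all). In bulk libraries, fewer cells of a type and less RNA per cell cannot be told apart. Fold changes below are from counts scaled between libraries by TMM, whereas RPKM is as deposited and scaled by library totals alone, so the scales can differ by a few percent.

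**Figure D1:**
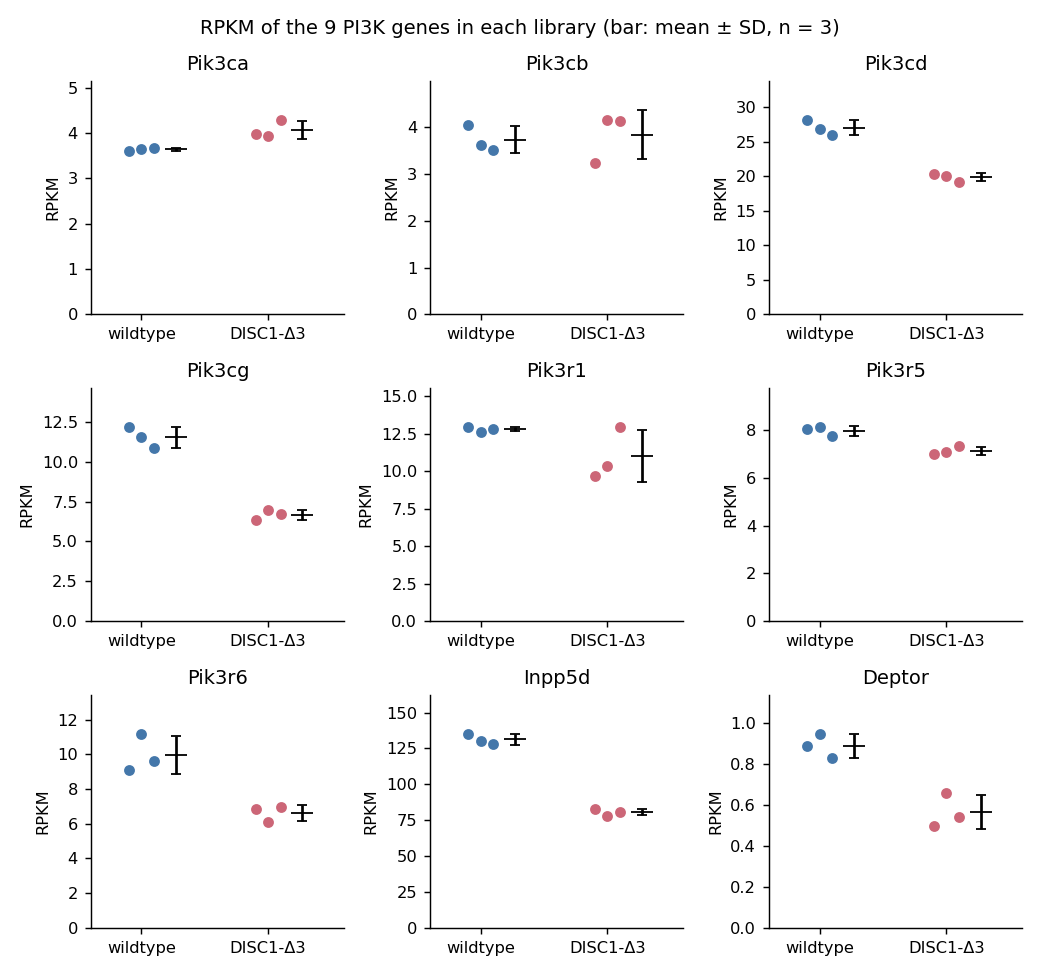
RPKM (y axis, linear from 0, each panel with its own scale) of each of the 9 genes in 3 wildtype (blue) and 3 DISC1-Δ3 (red) libraries; points are libraries and bars give the mean ± SD. DISC1-Δ3 libraries lie below all wildtype libraries for Pik3cd, Pik3cg, Pik3r5, Pik3r6, Inpp5d and Deptor, and above them for Pik3ca. The groups overlap for Pik3cb and for Pik3r1, where DISC1-Δ3 replicate 3 lies at 12.96 RPKM, among the wildtype libraries.

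Among the catalytic subunits, Pik3cg encodes p110γ, which is activated downstream of G protein-coupled receptors (gene ID 30955, chr12:32173397-32208677, minus strand). Its RPKM was 12.19, 11.53 and 10.84 in the wildtype libraries and 6.32, 6.95 and 6.73 in the DISC1-Δ3 libraries. Every DISC1-Δ3 library was far below every wildtype library. The log2 fold change was -0.87 (SE 0.065, 95% interval -1.01 to -0.73, adjusted p = 7.97e-09, edgeR), a fall of 45.2%, from 1000 to 1123 reads against 542 to 656. It was the largest change among the 9 genes.

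Pik3cd encodes p110δ, the class IA catalytic subunit of leukocytes (gene ID 18707, chr4:149649168-149702566, minus strand). It had an RPKM of 28.13, 26.82 and 26.01 in wildtype libraries, against 20.35, 19.95 and 19.19 in DISC1-Δ3 libraries. Again the groups did not overlap, and the spread within either group was small. Its log2 fold change was -0.52 (SE 0.051, 95% interval -0.62 to -0.41, adjusted p = 2.42e-07, edgeR).

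Pik3ca and Pik3cb encode p110α and p110β, the catalytic subunits found in most cell types. Pik3ca (gene ID 18706, chr3:32397065-32466112, plus strand) had an RPKM of 3.61, 3.64 and 3.67 in wildtype libraries, against 3.97, 3.94 and 4.29 in DISC1-Δ3 libraries. Although every DISC1-Δ3 value was the higher, the log2 fold change of 0.10 (SE 0.076, 95% interval -0.06 to 0.26, adjusted p = 0.312, edgeR) did not pass the threshold. The gene overlaps Kcnmb3, on the opposite strand, at its 3′ end, and the fractional counts of both in the DISC1-Δ3 libraries add up to whole reads (469.2 and 7.8 to 477 in replicate 3); how many reads they share was not measured. Pik3cb (gene ID 74769, chr9:99038402-99140235, minus strand) had an RPKM of 4.06, 3.62 and 3.52 in wildtype libraries, against 3.24, 4.16 and 4.14 in DISC1-Δ3 libraries. Here the groups overlapped, with DISC1-Δ3 replicate 1 lowest and replicates 2 and 3 highest. Its log2 fold change was -0.04 (SE 0.10, 95% interval -0.25 to 0.17, adjusted p = 0.777, edgeR), which turned to 0.05 with scaling by RPKM sums.

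The make-up of the class I catalytic RNA was compared next. The 4 genes summed to 45.9 ± 1.99 RPKM in wildtype and 34.4 ± 0.562 RPKM in DISC1-Δ3 libraries (SD, n = 3). Of that sum, Pik3cg was 25.4%, 25.3% and 24.6% in the wildtype libraries and 18.7%, 19.9% and 19.6% in the DISC1-Δ3 libraries. Pik3ca was 7.52% to 8.33% in wildtype and 11.3% to 12.5% in DISC1-Δ3 libraries, and Pik3cb 7.94% to 8.46% and 9.56% to 12.1%. None of these 3 shares overlapped between the groups. The exact two-sided permutation p was 0.1 for each, the smallest that 3 against 3 libraries allow. It was 0.114 after Benjamini-Hochberg adjustment over the 16 shares and ratios computed, which were chosen after the levels were known. As parts of 1 sum the shares are tied, so lower Pik3cd and Pik3cg raise the shares of Pik3ca and Pik3cb without a rise of either gene. Pik3cd was 58.8% ± 0.223 in wildtype and 57.6% ± 2.17 in DISC1-Δ3 libraries (SD, n = 3; exact permutation p = 0.4), so that it was the most abundant catalytic subunit per length in both.

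**Figure D2:**
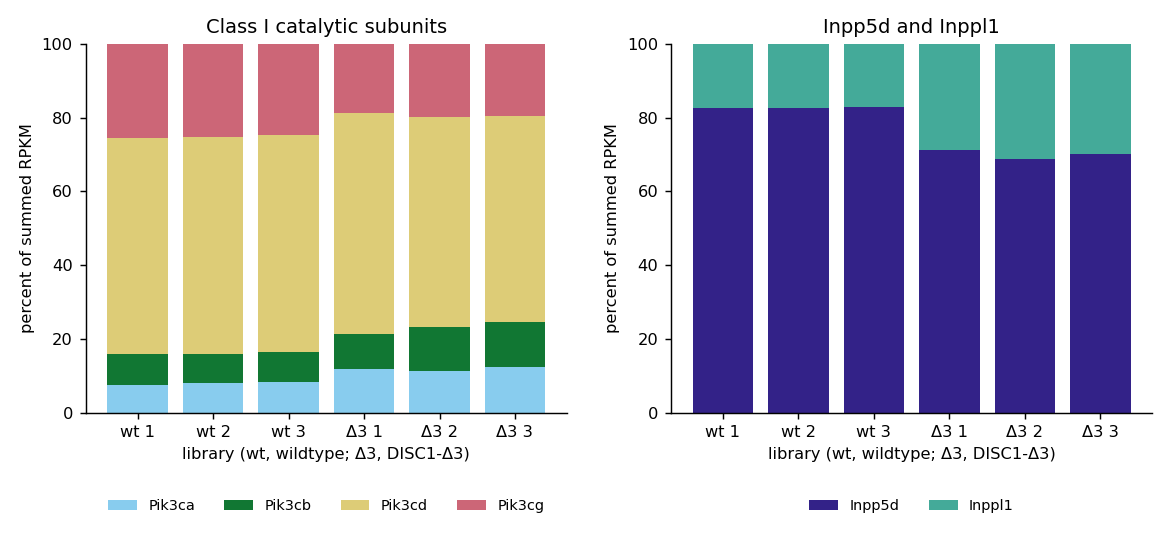
Stacked bars give, for each library (x axis; wt, wildtype; Δ3, DISC1-Δ3), the percent of summed RPKM taken by each class I catalytic subunit (left) and by the phosphatase genes Inpp5d and Inppl1 (right). Pik3cg takes 24.6% to 25.4% of the left sum in wildtype and 18.7% to 19.9% in DISC1-Δ3 libraries, and Inpp5d 82.6% to 82.8% of the right sum against 68.8% to 71.1%.

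Of the regulatory subunits, Pik3r6 and Pik3r5 encode p84 and p101, the alternative partners of p110γ. Both lie on chromosome 11 and the plus strand, Pik3r5 (gene ID 320207) at chr11:68432125-68497849 and Pik3r6 (gene ID 104709) at chr11:68503019-68552698, with 5169 bases between them. Pik3r6 had an RPKM of 9.10, 11.2 and 9.63 in wildtype libraries, against 6.84, 6.09 and 6.97 in DISC1-Δ3 libraries. The groups were apart, and the wildtype libraries spread more than for the other subunits, replicate 2 being highest. The log2 fold change was -0.67 (SE 0.090, adjusted p = 1.12e-05, edgeR). Pik3r5 had an RPKM of 8.04, 8.15 and 7.74 in wildtype libraries, against 7.01, 7.08 and 7.33 in DISC1-Δ3 libraries, which lay just below. Its log2 fold change was -0.24 (SE 0.070, adjusted p = 0.0104, edgeR). The call for Pik3r5 was lost without wildtype replicate 2 (log2 fold change -0.22, adjusted p = 0.0509) and with scaling by library totals (adjusted p = 0.0763) or RPKM sums (adjusted p = 0.0957).

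These neighbouring genes were also compared with each other. The ratio of Pik3r6 to Pik3r5 RPKM was 1.13, 1.37 and 1.24 in wildtype libraries, against 0.976, 0.860 and 0.951 in DISC1-Δ3 libraries, so p84 RNA was above p101 RNA per length in every wildtype library and below it in every DISC1-Δ3 library. The ratio of Pik3cg to the sum of both partners was 0.596 to 0.711 in wildtype and 0.456 to 0.528 in DISC1-Δ3 libraries. Neither ratio overlapped between groups (exact permutation p = 0.1 for each).

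Pik3r1 encodes p85α, the regulatory subunit that most class IA catalytic subunits bind (gene ID 18708, chr13:101680761-101768217, minus strand). Its RPKM was 12.98, 12.66 and 12.85 in wildtype libraries, against 9.72, 10.37 and 12.96 in DISC1-Δ3 libraries. DISC1-Δ3 replicates 1 and 2 were low, and replicate 3, the library that stood apart, was at the wildtype level in RPKM. In scaled counts replicate 3 was at 0.94 of the wildtype mean, below the lowest wildtype library at 0.99. The log2 fold change was -0.31 (SE 0.077, adjusted p = 0.00398, edgeR), and -0.44 without replicate 3. The call was lost with scaling by RPKM sums (log2 fold change -0.22, adjusted p = 0.0521) and in limma on log2(RPKM + 1) (-0.21, adjusted p = 0.0782). The related subunit Pik3r2, which encodes p85β, was the most abundant p85-type gene and was higher in DISC1-Δ3 libraries, with 45.9 ± 1.0 RPKM in wildtype and 55.3 ± 1.74 RPKM in DISC1-Δ3 libraries (SD, n = 3; log2 fold change 0.19, SE 0.047, adjusted p = 0.00359, edgeR). Pik3r1 made up 19.2% to 19.9% of p85-type RPKM in wildtype and 13.5% to 17.6% in DISC1-Δ3 libraries.

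Inpp5d encodes SHIP1, the phosphatase of blood cells and microglia that acts on PIP3 (gene ID 16331, chr1:87620312-87720510, plus strand). It was by far the most abundant of the 9 genes per length, with an RPKM of 135.37, 130.36 and 128.18 in wildtype libraries, against 82.95, 78.21 and 80.85 in DISC1-Δ3 libraries. The lowest wildtype value was well above the highest DISC1-Δ3 value. From 8816 to 10151 reads in wildtype and 5595 to 6177 in DISC1-Δ3 libraries, the log2 fold change was -0.79 (SE 0.042, 95% interval -0.88 to -0.70, adjusted p = 8.92e-11, edgeR), a fall of 42.1%. Its paralog Inppl1, which encodes the widely expressed SHIP2, was higher instead, with 27.5 ± 0.973 RPKM in wildtype and 34.6 ± 0.880 RPKM in DISC1-Δ3 libraries (SD, n = 3; log2 fold change 0.25, SE 0.046, adjusted p = 0.000263, edgeR). Of the summed RPKM of this pair, Inpp5d took 82.6%, 82.7% and 82.8% in the wildtype libraries and 71.1%, 68.8% and 70.1% in the DISC1-Δ3 libraries, which did not overlap (exact permutation p = 0.1).

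Deptor, which encodes the mTOR inhibitor (gene ID 97998, chr15:55112317-55259273, plus strand), was the least abundant of the 9 genes. It had an RPKM of 0.89, 0.95 and 0.83 in wildtype libraries, against 0.50, 0.66 and 0.54 in DISC1-Δ3 libraries, from 102, 131 and 114 reads against 60, 89 and 73. The groups did not overlap, and with so few reads the error was the widest of the set. The log2 fold change was -0.73 (SE 0.15, 95% interval -1.05 to -0.41, adjusted p = 0.000954, edgeR). The fold shrank to -0.27 on the log2(RPKM + 1) scale, which understates changes of low genes. Mtor itself was at 8.37 ± 0.243 RPKM in wildtype and 9.06 ± 0.652 RPKM in DISC1-Δ3 libraries (SD, n = 3; log2 fold change 0.06, SE 0.057, adjusted p = 0.394, edgeR). RNA of Deptor stood at 0.107 ± 0.010 of that of Mtor per length in wildtype and at 0.0633 ± 0.0142 in DISC1-Δ3 libraries (SD, n = 3).

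By level per length, the order in wildtype libraries was Inpp5d, Pik3cd, Pik3r1, Pik3cg, Pik3r6, Pik3r5, Pik3cb, Pik3ca and Deptor. Within that order the libraries of Pik3cg and Pik3r6 overlapped, as did those of Pik3cb and Pik3ca, and the other neighbours were apart. In DISC1-Δ3 libraries Pik3r5 stood above Pik3cg and Pik3r6, which overlapped again, and Pik3ca and Pik3cb overlapped at the lower end.

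**Figure D3:**
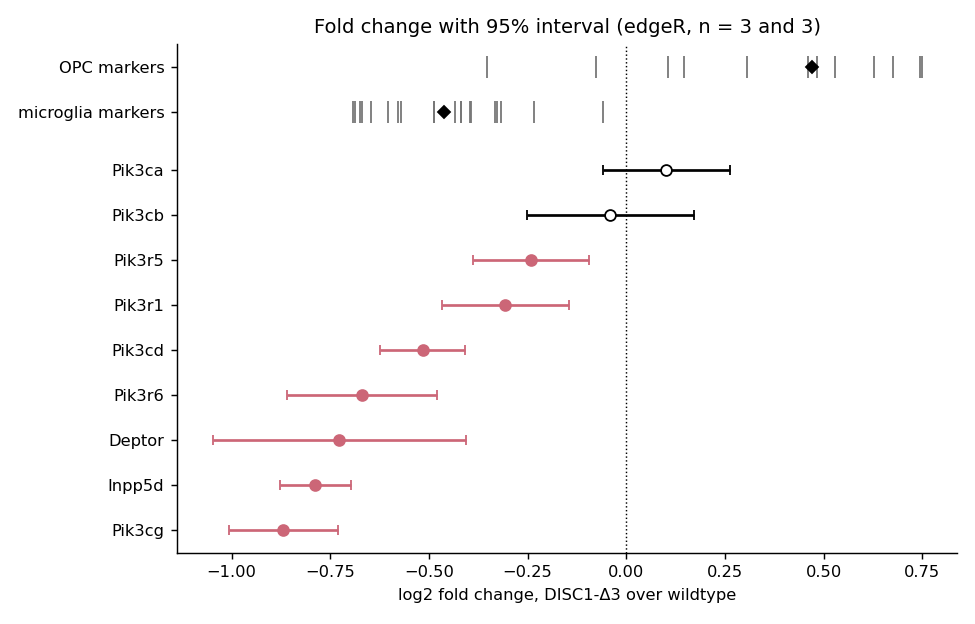
Log2 fold change of DISC1-Δ3 over wildtype (x axis) with its 95% interval for each of the 9 genes, from edgeR with 3 libraries a group; filled red points passed an adjusted p of 0.05, and open points did not. Ticks in the upper rows are single microglia and OPC markers and diamonds their medians, -0.46 and 0.47; Pik3cg, at -0.87, and Inpp5d, at -0.79, lie below every microglia marker.

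Since microglia markers moved with these genes, the fold changes were set beside those of the 20 markers. Of the markers, 0 fell by more than Pik3cg, Inpp5d or Deptor, 4 by more than Pik3r6, 8 by more than Pik3cd, and 18 by more than Pik3r1 or Pik3r5. These ranks hold for the 20 markers listed and leave out the errors, such as Deptor's 95% interval of -1.05 to -0.41. A list of 20 myeloid receptors, kinases and adaptors, 3 of them also markers, ranged from -1.17 to -0.02, with a median of -0.58. The ratio of a gene's RPKM to the summed RPKM of the microglia list was also computed in each library, as a ratio multiplied by 1000. For Pik3cd this ratio was 1.40, 1.33 and 1.27 in wildtype libraries, against 1.38, 1.35 and 1.34 in DISC1-Δ3 libraries, and it differed by less than the spread between libraries (0.03 on the log2 scale, SE 0.044, exact permutation p = 0.7). For Pik3cg the ratio was 0.608, 0.571 and 0.529 in wildtype libraries, against 0.430, 0.469 and 0.471 in DISC1-Δ3 libraries, a log2 difference of -0.32 (SE 0.073). For Inpp5d it was 6.75, 6.46 and 6.26 in wildtype libraries, against 5.64, 5.28 and 5.66 in DISC1-Δ3 libraries, a log2 difference of -0.23 (SE 0.045). For both genes every DISC1-Δ3 library was below every wildtype library relative to the microglia list. The exact permutation p was 0.1 for each, the smallest possible, and 0.15 after Benjamini-Hochberg adjustment over the 9 genes, so the test alone cannot pass a threshold. The size depends on the markers summed, with -0.43 for Pik3cg and -0.35 for Inpp5d relative to 5 of them.

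Relative to the same list, Pik3r5 was higher in DISC1-Δ3 libraries, with a log2 difference of 0.31 (SE 0.046), and so were Pik3r1 with 0.24 (SE 0.14), Pik3cb with 0.51 (SE 0.14) and Pik3ca with 0.63 (SE 0.055), none of them overlapping between groups (exact permutation p = 0.1 for each, 0.15 after Benjamini-Hochberg adjustment over the 9 genes). The value of Pik3r1 dropped to 0.10 without DISC1-Δ3 replicate 3, the library that stood apart, and to 0.12 relative to 5 microglia markers, and that of Pik3r5 to 0.19 relative to those 5. Pik3r6 and Deptor overlapped, with log2 differences of -0.11 (SE 0.12, exact permutation p = 0.5) and -0.19 (SE 0.13, exact permutation p = 0.3). When the counts were scaled by the reads of the microglia list in edgeR, an alternative added after the data were seen, Inpp5d and Pik3cg kept a negative log2 fold change (-0.27, adjusted p = 3.05e-05, and -0.35, adjusted p = 0.000410), whereas that of Pik3cd was 0.00 (adjusted p = 0.983) and that of Pik3r5 was 0.28 (adjusted p = 0.00346). On that scale Pik3r6 (-0.15, adjusted p = 0.171) and Deptor (-0.21, adjusted p = 0.207) did not pass the threshold, and Pik3ca (0.62, adjusted p = 1.08e-05), Pik3cb (0.48, adjusted p = 0.00118) and Pik3r1 (0.21, adjusted p = 0.0492) were higher. With this scaling 10956 of the 13792 genes tested were called higher and 294 lower, so a higher call was the usual result. The median over all tested genes was then 0.53, with Pik3ca above it and Pik3cb, Pik3r5 and Pik3r1 below it. The scaling was treated as known. The RPKM ratios of the 9 genes to the microglia list were not set beside those of all genes. The part of the microglia content in the changes of the 9 genes was not tested.

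**Figure D4:**
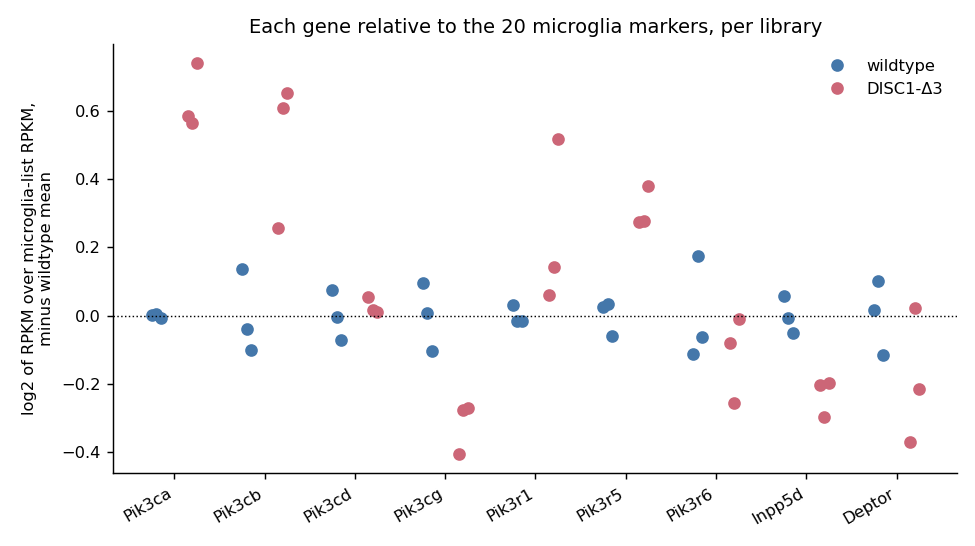
For each of the 9 genes (x axis), points give the log2 ratio of its RPKM to the summed RPKM of the 20 microglia markers in each library, minus the wildtype mean (y axis), in wildtype (blue) and DISC1-Δ3 (red). DISC1-Δ3 libraries lie at the wildtype level for Pik3cd, below it for Pik3cg and Inpp5d and above it for Pik3ca and Pik3r5, with log2 differences of 0.03, -0.32, -0.23, 0.63 and 0.31.

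The genes whose levels followed those of the 9 genes most closely over the 6 libraries were sought by Pearson's r of log2 CPM, a description over libraries that share the genotype difference. For Inpp5d they were Gab2, which encodes an adaptor that recruits p85, Hspa1a and Tagap, each with r of at least 0.9994. For Pik3cg they were Rasal3, Gm46620 and Pag1 (r of 0.9983 to 0.9994), and for Pik3cd Stab1, Tmem104 and Wdr81 (0.9991 to 0.9994). For Pik3r6 these were Ddc, Zbtb8a and Bank1 (0.9952 to 0.9991), for Pik3r5 Slc8a1, Sel1l and Arid3b (0.9983 to 0.9993), for Pik3r1 Dse, Dhx9 and Fam120c (0.9958 to 0.9981), and for Deptor Zbp1, Ifitm10 and Nfam1 (0.9945 to 0.9963). Such values are common with 6 libraries, as 1070 genes had an r above 0.95 with Inpp5d, 1017 with Pik3cd and 993 with Pik3cg. Fewer genes, 264, reached it with Pik3r1. Among the 9 genes, Pik3cd, Pik3cg, Pik3r5 and Inpp5d had r of 0.963 to 0.992 with one another. With these genes, Pik3r6 and Deptor had r of 0.925 to 0.971, Pik3r1 of 0.711 to 0.837 and Pik3ca of -0.892 to -0.788. Pik3cb had r of 0.02 to 0.56 with the other 8. Taken as deviations from the group means, the pairs among Pik3cd, Pik3cg, Pik3r5 and Inpp5d had r of only -0.05 to 0.71.

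Around the 9 genes, 102 further pathway genes from 6 lists were tested, of which 15 were higher and 41 lower in DISC1-Δ3 libraries. Over all genes tested, 20.4% were higher and 19.5% lower. Of the 41 lower genes, 18 came from the myeloid list described next. Of the 102 genes, the number higher was 24 with scaling by RPKM sums, 25 with scaling by library totals and 9 without wildtype replicate 2. The lower genes were most frequent among receptors and kinases that couple to PI3K in myeloid cells, with 18 of 20 lower, none higher and a median log2 fold change of -0.58. Examples were Fgr, an SRC-family kinase (-1.17, adjusted p = 0.000145, edgeR), and Hcst, which encodes the p85-binding adaptor DAP10 (-0.94, adjusted p = 0.00712, edgeR), while Sh2d1b1 had -1.07 (adjusted p = 0.0158, edgeR), a call lost without wildtype replicate 3 (adjusted p = 0.0755). Blnk, a B cell and myeloid adaptor, was the exception with Dok2, at -0.02 (adjusted p = 0.798, edgeR). Of that list 3 genes are also in the microglia list, whose summed level moved with them as given above, and the part of that level in these changes was not tested.

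Among receptors and adaptors of growth factor signaling, 4 of 18 tested were higher and 8 lower (22.2% and 44.4%, beside 20.4% and 19.5% of all genes). Pdgfra, the PDGF receptor of OPCs that also served for immunopanning, had 17.5 ± 0.503 RPKM in wildtype and 25.9 ± 0.915 RPKM in DISC1-Δ3 libraries (SD, n = 3; log2 fold change 0.48, adjusted p = 2.42e-07, edgeR). Fgfr1, an FGF receptor, had 0.35 (adjusted p = 4.57e-06, edgeR) and Kit, the stem cell factor receptor, 0.42 (adjusted p = 0.0226, edgeR). The call of Kit was lost without wildtype replicate 2 (adjusted p = 0.0951), wildtype replicate 3 (0.0513) or DISC1-Δ3 replicate 1 (0.0845). On the lower side, Gab2 had -0.59 (adjusted p = 3.35e-08, edgeR), Insr, the insulin receptor, -0.38 (adjusted p = 0.00363, edgeR), and Cbl, a ubiquitin ligase of activated receptors, -0.35 (adjusted p = 0.000135, edgeR).

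Among the other PI3K subunits and binding proteins, 1 of 8 tested was higher (Pik3r2) and 3 were lower (12.5% and 37.5%, beside 20.4% and 19.5% of all genes). The lower genes were Pik3ap1, which encodes the leukocyte adaptor BCAP (50.1 ± 1.41 RPKM in wildtype and 40.1 ± 2.37 RPKM in DISC1-Δ3 libraries, SD, n = 3; log2 fold change -0.43, adjusted p = 1.33e-06, edgeR), Pik3ip1, which encodes an inhibitor of the catalytic subunits (-0.33, adjusted p = 0.000278, edgeR), and the class II kinase Pik3c2a (-0.43, adjusted p = 0.0220, edgeR). The call of Pik3c2a was lost without any one of wildtype replicates 1, 2 and 3 or DISC1-Δ3 replicate 2, with adjusted p of 0.0525 to 0.0907. Of 13 further phosphoinositide phosphatases 4 were higher and 4 lower (30.8% each, beside the same shares of all genes). Besides Inppl1, the higher ones were Inpp5f (0.32), Inpp5j (0.52) and Synj2 (0.67), which encode 4- or 5-position phosphatases, and the lower ones were Mtm1 (-0.75), which encodes a 3-position phosphatase, Inpp4b (-0.65), which encodes a 4-position one, Synj1 (-0.26) and Inpp5k (-0.24). The call of Inpp5j was lost without wildtype replicate 2 (adjusted p = 0.0519) or 3 (0.0612), that of Synj2 without wildtype replicate 3 (0.0616), and that of Synj1 without wildtype replicate 1 (0.0637) or 2 (0.0944).

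Downstream, Akt1 and Akt2 did not pass the test, with log2 fold changes of 0.00 for Akt1 (adjusted p = 0.981, edgeR) and -0.01 for Akt2 (adjusted p = 0.830, edgeR), values whose sign turned with scaling by RPKM sums (0.08 and 0.07). Of 19 AKT kinases and targets 2 were higher, Gsk3a (0.18) and Tsc2 (0.15), and 3 lower, the AKT-related kinases Sgk3 (-0.55) and Sgk1 (-0.50) and the AKT phosphatase Phlpp2 (-0.26). Of 24 genes of mTOR complexes and their targets 4 were higher and 5 lower. The largest changes among the called genes there were in Prr5 (-0.56), a subunit of mTOR complex 2, the stress-induced mTOR inhibitors Sesn1 (-0.40), Ddit4 (-0.27), Sesn2 (0.33) and Sesn3 (0.32), and Akt1s1 (0.24), which encodes the AKT substrate PRAS40. Several of these calls were lost when 1 library was left out. That of Gsk3a was lost without DISC1-Δ3 replicate 2 (adjusted p = 0.130), that of Tsc2 without wildtype replicate 2 or 3 or DISC1-Δ3 replicate 1 or 2 (0.0839 to 0.182), and that of Phlpp2 without any wildtype replicate or DISC1-Δ3 replicate 2 (0.0508 to 0.117). The call of Sesn2 was lost without wildtype replicate 1 or 2 or DISC1-Δ3 replicate 1 (0.0653 to 0.115), and that of Sesn3 without any wildtype replicate or DISC1-Δ3 replicate 3 (0.0561 to 0.109). Lower genes were 15.8% of the AKT list and 20.8% of the mTOR list, beside 19.5% of all genes. Higher genes were 10.5% and 16.7% of these lists, beside 20.4% of all genes.

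**Figure D5:**
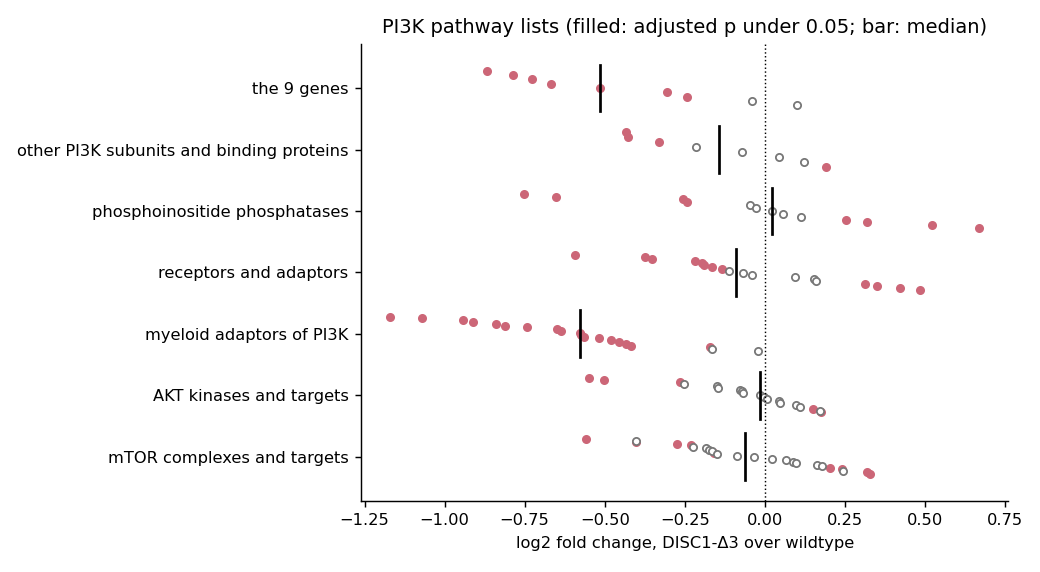
Log2 fold change of DISC1-Δ3 over wildtype (x axis) for each tested gene of the 9 genes and of 6 further pathway lists (rows); filled points passed an adjusted p of 0.05 in edgeR, open points did not, and vertical bars are medians. The 9 genes and the myeloid adaptors have medians of -0.52 and -0.58, whereas the AKT and mTOR lists have medians of -0.01 and -0.06.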

How the data were processed

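RNA of 6 OPC libraries (3 wildtype, 3 DISC1-Δ3) was sequenced as 50-base single-end reads of poly(A) RNA on a BGISEQ-500. The authors deposited 1 table with estimated counts and RPKM for each gene and library, in which reads that match several genes are divided between them and RPKM is scaled by gene length and library total; the submitters' processing notes name Bowtie2 2.2.5 and mm10. The counting tool, annotation and strand setting are not given in the sources used here, and without strand reads of overlapping genes cannot be told apart. The table's 4 columns of group means were left out.

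Estimated counts, 90.2% of them whole within 1e-6 among values above 0, were rounded and tested with edgeR 4.0.16 (R 4.3.3; TMM, quasi-likelihood test, a term for genotype only, two-sided) for genes with RPKM of at least 0.5 in at least 3 libraries, with Benjamini-Hochberg adjustment over all 13792 and a threshold of 0.05. Depth was 13716619 to 16417219 reads, so precision is lowest for low genes such as Deptor; intervals cover the fitted spread between libraries. Shares and ratios were compared by exact two-sided permutation tests. Motifs were searched on both strands of the 250 bases before each RefSeq start site. Some genes of the pathway lists are not reported here and were left out of the list counts. Members and lists were chosen with earlier results of these data known. Named were the 9 genes, any gene of the subunit and phosphatase lists, up to 3 called genes per direction of the other pathway lists, Akt1, Akt2, Mtor, the 3 genes most like each called member, Disc1, Cspg4 and up to 3 abundant genes of a marker list; Blnk and Dok2 were named after their values were seen. Alternatives were DESeq2 1.42.0, other scalings, other filters, limma 3.58.1 on log2(RPKM + 1) and log2(RPKM + 0.1), robust estimation, a replicate block and leaving out each library. The edgeR script was checked on simulated data.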

Additional observations from a re-analysis of the deposited data

How the results depend on the processing

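Of 60 named genes called, 40 kept call and direction in every alternative of the plan and none reversed there. Pik3cd, Pik3cg, Pik3r6, Inpp5d and Deptor were among those kept; Deptor was not tested with a filter at an RPKM of 1. The members called lower numbered 5 with scaling by RPKM sums and with limma, and 6 with scaling by library totals, with the filter at an RPKM of 1 and without wildtype replicate 2. The genes called over all tested were 5498, of which 51.1% were higher; with scaling by RPKM sums it was 5843 (70.0% higher), with library totals 5958 (69.1%), with limma 5757 (69.2%) and 5728 (69.2%), with DESeq2 4600 (48.5%), and leaving out 1 library 4342 to 6232. Other pathway genes called higher numbered 24 with scaling by RPKM sums, 25 with library totals, and 9 to 15 leaving out 1 library.

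The sign of small values turned. For Pik3cb the log2 fold change was 0.045 with RPKM sums, 0.042 with library totals, 0.030 and 0.036 with limma (pseudocounts of 1 and 0.1), and -0.10 to 0.030 leaving out 1 library. For Akt1 these were 0.084, 0.081, 0.066 and 0.067, and -0.034 to 0.019 leaving out 1 library; for Akt2 0.072, 0.068, 0.065 and 0.066, and -0.047 to 0.011. With scaling by the reads of the microglia list, added after the data were seen, Pik3cb had 0.48, Pik3cd 0.0011, Pik3r1 0.21 and Pik3r5 0.28, and the calls of Pik3r6 (-0.15) and Deptor (-0.21) were lost. Over 5 microglia markers in place of 20, the log2 differences relative to them were 0.51 for Pik3ca, -0.090 for Pik3cd, -0.43 for Pik3cg, 0.19 for Pik3r5 and -0.35 for Inpp5d. The causes were not tested.

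Same-numbered libraries did not deviate together from their group means (r of 0.04, 0.03 and -0.03), so the numbers do not pair the libraries, and not every library correlated best with its own number. With the replicate block 5429 genes were called, with 7 members lower, and the only named gene whose call changed was Zbtb8a (adjusted p = 0.0572).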

Other observations

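Markers of other cell types were measured in the same libraries, and the 9 PI3K genes were not set against them one by one. Of 10 astrocyte markers 7 were lower and 1 higher in DISC1-Δ3 libraries, with a median log2 fold change of -0.24, and of 9 tested markers of mature oligodendrocytes 6 were lower and none higher, with a median of -0.45. Of 8 markers of border-associated macrophages 4 were lower and none higher, with log2 fold changes of -0.64 to 0.44 and a median of -0.03. The 4 not called all had positive values. The summed RPKM of this list was 205 to 215 in wildtype and 174 to 182 in DISC1-Δ3 libraries. Of 5 tested neutrophil and lymphocyte markers 4 were lower. In contrast, 8 of 10 neuronal, 4 of 8 endothelial and 8 of 8 pericyte markers were higher and none lower, with medians of 0.44, 0.19 and 0.47. Of 12 OPC markers 8 were higher and 1, Ptprz1, was lower. Calls are at an adjusted p under 0.05 in edgeR's quasi-likelihood test, beside 20.4% of all genes higher and 19.5% lower.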
